A study of Mus musculus with 8 samples.

Results

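Integrins, laminins and the other basement membrane genes were read as 42 genes on 90 probe sets, out of 18193 named genes and 45037 probe sets once array controls are set aside. A probe set was included when its single gene symbol named an integrin subunit, a laminin chain, a nidogen (Nid1, Nid2), perlecan (Hspg2), agrin (Agrn), dystroglycan (Dag1) or the integrin-linked kinase (Ilk), and the integrin-binding proteins Itgb1bp and Itgb3bp were excluded. The symbol pattern also takes in Itgbl1, an integrin beta-like secreted protein that is not a receptor subunit. The study profiled total RNA of LB-22 cells, an immortalized mouse embryonic kidney line, with 1 Affymetrix Mouse 430_2 array per sample. The groups were 4 samples transfected with 25 pmol of siRNA against Wt1, the gene of a DNA-binding zinc finger protein needed for kidney formation, and 4 samples transfected with 25 pmol of a scrambled control siRNA. All 8 samples came from the same line. They were expanded at 33 °C with interferon gamma, received siRNA in a lipid reagent for 6 h, were moved to 37 °C without interferon at transfection, and were lysed after 48 h. Whether the 4 samples of a group were separate cultures is not stated in the labels. The p-values therefore rest on the spread among these 8 samples, and that spread may be technical only.

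Integrins are heterodimers of an alpha and a beta subunit that join the cytoskeleton to matrix outside the cell, and the subunit pair sets which ligand is bound. In a basement membrane, cross-shaped laminin trimers of an alpha, a beta and a gamma chain form a first network on the cell surface, type IV collagen forms another, and nidogens and perlecan link them. In the developing kidney this sheet separates forming epithelia from mesenchyme, and in the mature glomerulus it carries the filter between capillary and podocyte. Laminins are bound by integrins α3β1, α6β1, α6β4 and α7β1 and by dystroglycan, whereas αV integrins bind the RGD motif of fibronectin, vitronectin and related proteins.

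Wt1 was lowered on every array that received its siRNA. Its signal was 1679, 1531, 1317 and 1914 on Wt1 siRNA arrays 1 to 4, against 8397, 7129, 8197 and 7423 on control siRNA arrays 1 to 4. The groups did not overlap, and the Wt1 siRNA group kept 20.5% of the control signal (log2 difference -2.28 ± 0.11, SE; limma adjusted p = 9.17e-07). Every array had been scaled to the same trimmed mean signal, 1500.0. Log2 signals of the 22518 tested probe sets correlated at 0.966 to 0.985 within groups and at 0.937 to 0.967 between groups. Wt1 siRNA array 4 and control siRNA array 3 were the least like their groups, with mean correlations of 0.971 and 0.969 to the other arrays of the group, and values are given without them where they matter. Centring each array on its median signal, in place of the deposited scaling, gave a median difference over all tested probe sets of 0.0971, against -0.0111 with the deposited scaling, so calls that this centring ended are named.

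Transcripts of the laminin-binding alpha subunits α3, α6 and α7 and of αV, β3 and β5 were lower after Wt1 siRNA, those of β1, β4 and β8 did not pass, and the 2 nidogens went in opposite directions. Differences are Wt1 siRNA minus control siRNA on the log2 scale. They were tested with limma over the brighter part of all probe sets (22518, a share of 0.5), and a probe set was called at a Benjamini-Hochberg adjusted p under 0.05. Each gene was read on its probe set with the highest mean signal. Of the 42 genes 24 passed the filter on signal, and of these 8 were called lower (Itga3, Itga6, Itga7, Itgav, Itgb3, Itgb5, Nid2 and Ilk), 2 were called higher (Nid1 and Agrn) and 14 did not pass. Over all 11263 genes read in the same way 27.8% were called, 14.6% lower and 13.2% higher. Of 25 integrin subunit genes 13 were tested, 6 were lower and 0 were higher by limma, with 2 higher at an unadjusted p under 0.05 (Itgb1 and Itga10). The median difference of the 13 integrin genes was -0.51, against -0.00438 over all genes. At the level of probe sets 42 of the 90 were tested, 11 were lower and 4 higher, against 23.1% called of all tested probe sets, 12.3% lower and 10.8% higher. Groups did not overlap in 11 of the 24 tested genes, against 32.4% of all genes read in the same way. Of the 10 called genes Itga6 was the 1 with overlapping groups.

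**Figure D1:**
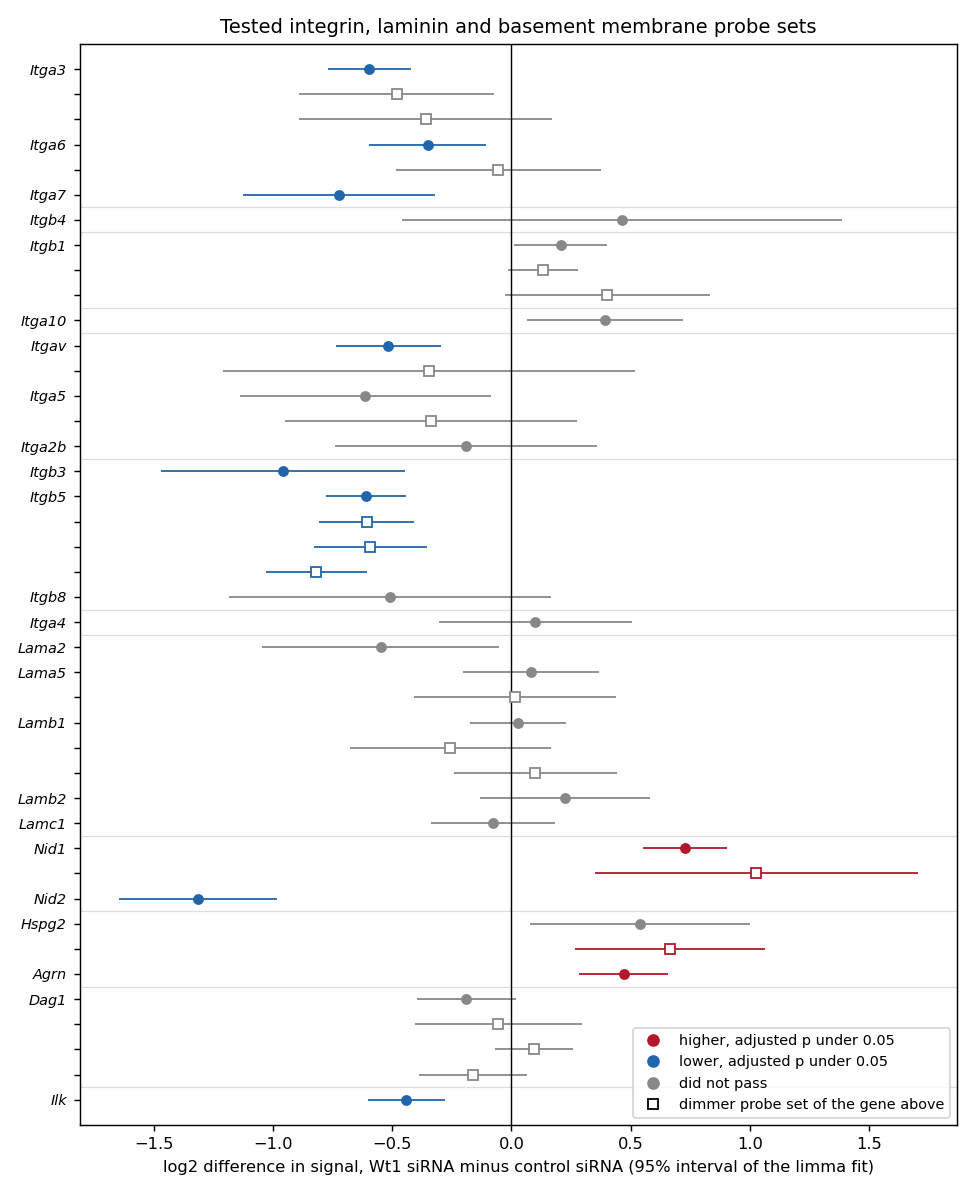
Log2 difference in signal (x axis, Wt1 siRNA minus control siRNA, 4 arrays each) of the 42 tested probe sets, with the 95% interval of the limma fit. Filled circles are the brightest probe set of each gene, named on the y axis, and open squares the dimmer ones under it. The 4 Itgb5 probe sets lie between -0.82 and -0.59, and Nid1 (0.73) and Nid2 (-1.31) lie on opposite sides of 0.

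Among the laminin receptors, all 3 alpha subunits were called lower, though the Itga6 call was lost in 13 of 23 alternatives. Itga3 encodes the alpha subunit of α3β1, which podocytes and tubule epithelia use to hold laminin. Its signal was 5605, 5462, 4900.5 and 5751 on Wt1 siRNA arrays 1 to 4, against 9044, 7702, 8284 and 7798 on control siRNA arrays 1 to 4. The Wt1 siRNA arrays all lay below the control arrays, at 66.2% of control (log2 -0.60 ± 0.08, adjusted p = 0.000341). Its other 2 tested probe sets were at -0.36 and -0.48 and did not pass (adjusted p = 0.315 and 0.0874).

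Itga7, the laminin-binding subunit best known from muscle, was dimmer. Its signal was 742, 941, 866 and 518 on Wt1 siRNA arrays 1 to 4, against 1376, 1088, 1184 and 1308 on control siRNA arrays 1 to 4. The groups did not overlap, with Wt1 siRNA array 4 the lowest, and the level fell to 60.6% of control (log2 -0.72 ± 0.18, adjusted p = 0.0153). Median centring ended the call (-0.61, adjusted p = 0.051). Itga6, whose product pairs with β1 or with β4 of hemidesmosomes, had the smallest of the called differences. Its signal was 4305, 3539.9, 4013 and 3107 on Wt1 siRNA arrays 1 to 4, against 4127, 4835, 5310.4 and 4757 on control siRNA arrays 1 to 4. The groups overlapped at their edge, and the level was 78.4% of control (log2 -0.35 ± 0.11, adjusted p = 0.0428). Its other tested probe set was at -0.05. The Itga6 call was lost without any 1 of Wt1 siRNA arrays 2, 3 or 4 (adjusted p = 0.106, 0.0528 and 0.0866) or of control siRNA arrays 2, 3 or 4 (0.0934, 0.0792 and 0.0932), and with median centring it was at -0.24 (adjusted p = 0.351). That call was also lost with no filter on signal (0.077) and with limma without the intensity trend (0.084). With the mean over its probe sets Itga6 was at -0.20 (0.247).

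The beta partners of these subunits were not called. Itgb1, the common partner of the laminin, collagen and several RGD-binding alpha subunits, had signals of 18239.5, 19276, 20215 and 23241 on Wt1 siRNA arrays 1 to 4, against 16668, 19495, 17334 and 16549 on control siRNA arrays 1 to 4. The ranges overlapped and the difference was 0.21 ± 0.09 (95% interval 0.01 to 0.40, adjusted p = 0.118). Its other 2 tested probe sets were at 0.13 and 0.40 and did not pass either, so the 3 readings of Itgb1 were all above 0. Itgb4, the hemidesmosome subunit, was dim and varied widely, with signals of 999.6, 759, 214 and 605 on Wt1 siRNA arrays 1 to 4, against 556, 251, 483 and 406 on control siRNA arrays 1 to 4. Its difference of 0.46 ± 0.42 did not pass (adjusted p = 0.471). It ranged over 0.18, without Wt1 siRNA array 1, to 0.92, without Wt1 siRNA array 3, and passed in the second case (adjusted p = 0.0493).

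Both αV and its partners β3 and β5 were lower. Itgav encodes the alpha subunit shared by the RGD-binding αV integrins, some of which also release TGF-beta from its latent form. Its signal was 20649, 17386, 17694 and 15316 on Wt1 siRNA arrays 1 to 4, against 23803, 26237, 28445 and 22941 on control siRNA arrays 1 to 4. Every Wt1 siRNA array lay below every control array, at 69.9% of control (log2 -0.52 ± 0.10, adjusted p = 0.00337). The other tested Itgav probe set was at -0.35 ± 0.39 and did not pass (adjusted p = 0.572), with control siRNA array 3 at 833 against 2797 to 4169 on the other control arrays. Centred on array medians, Itgav was at -0.41 and lost its call (adjusted p = 0.0885). When its 5 probe sets, including those under the filter, were averaged into 1 value per gene, it was at -0.24 (adjusted p = 0.636).

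Itgb5, whose product forms the vitronectin receptor αVβ5, had signals of 5167, 5532, 5575 and 5773 on Wt1 siRNA arrays 1 to 4, against 7906, 8211, 9415 and 8191 on control siRNA arrays 1 to 4. The groups were well apart, at 65.5% of control (log2 -0.61 ± 0.08, adjusted p = 0.000204). All 4 Itgb5 probe sets were called lower, the other 3 at -0.61, -0.59 and -0.82. The brightest and the one at -0.82 are of an _x_at design, which may match other transcripts. Itgb3, which pairs with αV or with the platelet subunit αIIb, had signals of 309, 445, 299 and 488 on Wt1 siRNA arrays 1 to 4, against 639.9, 635, 1061 and 663 on control siRNA arrays 1 to 4. It fell to 51.5% of control (log2 -0.96 ± 0.23, adjusted p = 0.0123) with no overlap, and control siRNA array 3 was far above the other controls. Without that array the difference was -0.78 (adjusted p = 0.0241). Itgb8, which pairs with αV in TGF-beta release, was near the filter with a difference of -0.51 ± 0.31 that did not pass (adjusted p = 0.264), and Itgb6, the epithelial αV partner, lay between 111 and 193 on its brighter probe set. That is under 227, the highest signal of 27 control probe sets for Bacillus transcripts, which served as the background level.

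**Figure D2:**
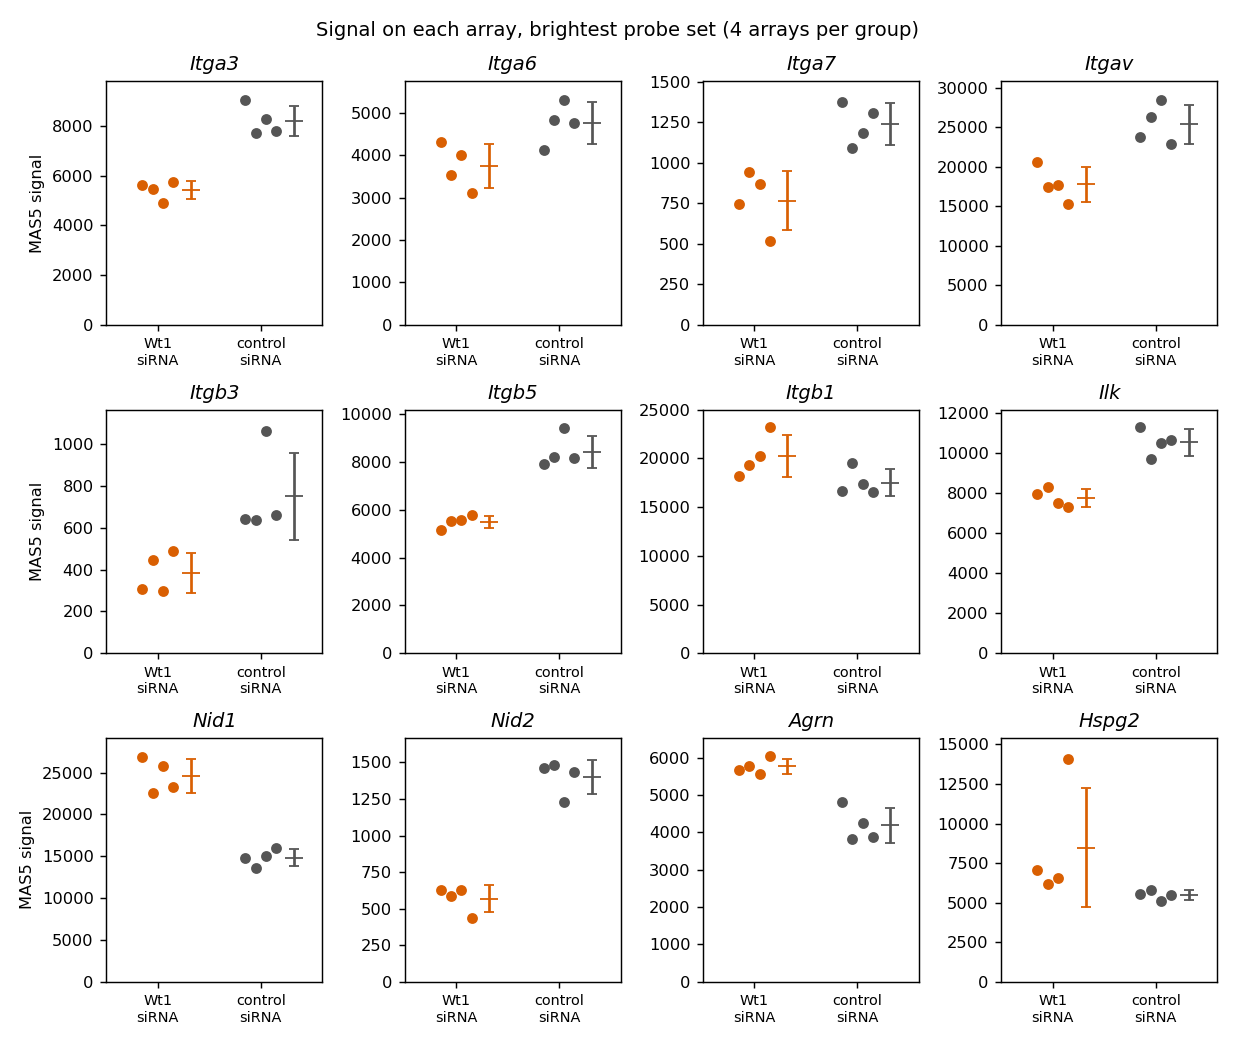
MAS5 signal (y axis, linear from 0) on each of the 4 Wt1 siRNA and 4 control siRNA arrays for 12 genes, on the brightest probe set, with the group mean and SD beside the points. The groups are apart for Itga3, Itga7, Itgav, Itgb3, Itgb5, Ilk, Nid1, Nid2 and Agrn and overlap for Itga6 and Itgb1. In Hspg2 the highest point is Wt1 siRNA array 4.

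The other RGD-binding alpha subunits gave no call. Itga5, of the fibronectin receptor α5β1, had signals of 1059, 977, 772 and 1797 on Wt1 siRNA arrays 1 to 4, against 2322, 1367, 1499 and 1651 on control siRNA arrays 1 to 4. Wt1 siRNA array 4 lay within the control range while the other 3 were below it, and the difference of -0.61 ± 0.24 did not pass (adjusted p = 0.0892). Without that array it was -0.85 and passed (adjusted p = 0.00829). Of 21 alternatives Itga5 passed in 4 and did not pass in 17. The other tested Itga5 probe set was at -0.34 ± 0.28, with overlapping groups, and did not pass (adjusted p = 0.422). Itga2b, the αIIb subunit of platelets, overlapped between groups (-0.19 ± 0.25, adjusted p = 0.629), and of 5 platelet markers with a probe set 1 passed the filter on signal. Itga8, the nephronectin receptor subunit of kidney mesenchyme, ranged over 66 to 213 on its brighter probe set, under background.

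No collagen-binding subunit was called. Itga10, a collagen-binding partner of β1, had signals of 718, 728, 738 and 592 on Wt1 siRNA arrays 1 to 4, against 570.4, 504, 522 and 512 on control siRNA arrays 1 to 4. The Wt1 siRNA arrays were all higher, but the difference of 0.39 ± 0.15 did not pass (adjusted p = 0.0818). Wt1 siRNA array 4 stood apart from its group, and without it Itga10 was at 0.47 and passed (adjusted p = 0.0454). Itga1, whose product binds type IV collagen, had signals of 25.6, 25, 37.8 and 24 after Wt1 siRNA, against 69.6, 69.7, 179 and 78 after control siRNA on its brighter probe set. These did not overlap, but all 8 lie under the background level, so no fold is given. Itga2 was not tested and ranged over 185 to 336.

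Itga4, whose product binds VCAM1 and fibronectin, did not pass (0.10 ± 0.18, adjusted p = 0.739), and Itga9, its closest relative, was not tested. The 7 leukocyte-type subunits (Itgae, Itgal, Itgam, Itgax, Itgb2, Itgb2l and Itgb7) were all under the filter, and for 4 of them both group means were under background. A dimmer Itgb2l probe set read 45.1, 49.5, 48.5 and 34.2 after Wt1 siRNA, against 229.7, 134, 199.8 and 112 after control siRNA, with both group means under background and no overlap. Of 9 leukocyte markers with a probe set 5 were tested, their summed signal was 4453 to 4827 after Wt1 siRNA and 4310 to 4846 after control siRNA, and Ptprc, Cd3e, Tyrobp and Coro1a were under the filter. Of the 5, Cd68 was called higher (0.99) and Csf1r and Adgre1 lower (-0.76 and -0.92), and their part in the integrin results was not tested. Over all genes 13.2% were called higher and 14.6% lower. Itgbl1 was untested as well. In all, 48 of the 90 probe sets were left untested, 39 of them with both group means under background.

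The laminin chains, the ligands of the lowered α3, α6 and α7 subunits, gave no call. Of 10 chain genes 5 were tested and 0 were called in either direction by limma, with 1 lower at an unadjusted p under 0.05 (Lama2). Lamc1, the gamma chain of most laminins, had signals of 5910.0, 4159, 5724 and 6453 on Wt1 siRNA arrays 1 to 4, against 5682, 5943, 5939.9 and 5619 on control siRNA arrays 1 to 4. The control arrays were close together and the Wt1 siRNA arrays ranged on both sides of them (-0.08 ± 0.12, 95% interval -0.34 to 0.18, adjusted p = 0.682), and its sign turned with median centring (0.03). Lamb1, the beta chain that Lamc1 joins in the early kidney, was at 0.03 ± 0.09 (95% interval -0.17 to 0.23, adjusted p = 0.866), averaging 3935 ± 321 after Wt1 siRNA and 3864 ± 349.9 after control siRNA (SD, n = 4 each; limma). Further tested Lamb1 probe sets were at -0.26 and 0.10 and did not pass (adjusted p = 0.37 and 0.69). Lamb2, the beta chain of the mature glomerular basement membrane, was at 0.22 ± 0.16 (adjusted p = 0.352). Lama5, the main alpha chain of mature kidney basement membranes, was at 0.08 ± 0.13 (95% interval -0.20 to 0.37, adjusted p = 0.694) on its brightest probe set and at 0.01 on another.

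Lama2, the alpha chain of muscle laminin, was dim, with signals of 469, 298, 241 and 359.7 on Wt1 siRNA arrays 1 to 4, against 523, 526, 439.7 and 459 on control siRNA arrays 1 to 4. Only Wt1 siRNA array 1 reached into the control range, and the difference of -0.55 ± 0.23 did not pass (adjusted p = 0.105). Without that array it was -0.71 (adjusted p = 0.0485). Lama1, Lama3, Lama4, Lamb3 and Lamc3 were under the filter, and Lama1, Lama3, Lama4 and Lamb3 had both group means under background on every probe set.

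The nidogens, which bind the laminin gamma 1 chain and type IV collagen, moved apart. Nid1 had signals of 26828, 22507, 25815 and 23223 on Wt1 siRNA arrays 1 to 4, against 14792, 13568, 15053 and 15978 on control siRNA arrays 1 to 4. Every Wt1 siRNA array was above every control array, at 1.65-fold (log2 0.73 ± 0.08, adjusted p = 8.75e-05). A dimmer Nid1 probe set was also called higher (1.03 ± 0.31, adjusted p = 0.0331), a call that was lost without Wt1 siRNA array 1 (adjusted p = 0.0566), 3 (0.0617) or 4 (0.0798, at 0.82) or control siRNA array 2 (0.0531) or 4 (0.0587). The same call was lost with a robust limma variance model (0.0689), without the intensity trend (0.0746) and with no filter on signal (0.0586). Nid2 had signals of 626, 586, 628 and 438 on Wt1 siRNA arrays 1 to 4, against 1460.1, 1485, 1232 and 1435 on control siRNA arrays 1 to 4. The groups did not overlap and the level was 40.3% of control, lower by the widest margin among the 24 tested genes (log2 -1.31 ± 0.15, adjusted p = 0.000114). Nid2 rests on 1 probe set.

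The heparan sulfate proteoglycans of the basement membrane were higher in part. Agrn, encoding agrin, which binds laminin and dystroglycan, had signals of 5687, 5788, 5579 and 6047 on Wt1 siRNA arrays 1 to 4, against 4812, 3826, 4243 and 3869 on control siRNA arrays 1 to 4. The groups did not overlap and the Wt1 siRNA arrays were at 1.38-fold (log2 0.47 ± 0.09, adjusted p = 0.00238). Hspg2, encoding perlecan, had signals of 7055, 6173, 6567 and 14069 on Wt1 siRNA arrays 1 to 4, against 5545, 5824, 5077 and 5500.5 on control siRNA arrays 1 to 4. All Wt1 siRNA arrays were above the controls, and array 4 was far above the other 3. The difference of 0.54 ± 0.21 did not pass (adjusted p = 0.0878), whereas without array 4 it was 0.27 and passed (adjusted p = 0.0321). Of 23 alternatives Hspg2 passed in 5, among them median centring (0.65, adjusted p = 0.0195), and did not pass in 18. The other Hspg2 probe set (an _s_at design, which may match more than 1 transcript) was called higher (0.66 ± 0.18, adjusted p = 0.0215). It was not called without control siRNA array 2 (0.0645) or 4 (0.0612), or with limma without the intensity trend (0.0543).

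Dag1 encodes dystroglycan, the laminin and agrin receptor outside the integrin family. Its signals were 7173, 7166, 6527 and 7615 on Wt1 siRNA arrays 1 to 4, against 9215, 6904, 8649 and 7839 on control siRNA arrays 1 to 4. The ranges overlapped and the difference did not pass (-0.19 ± 0.09, 95% interval -0.40 to 0.02, adjusted p = 0.175), and its 4 probe sets ranged over -0.19 to 0.10. Ilk encodes a pseudokinase that ties β integrin tails to actin. Its signals were 7958, 8266, 7471 and 7271 on Wt1 siRNA arrays 1 to 4, against 11264, 9665, 10487 and 10640.0 on control siRNA arrays 1 to 4. It was at 73.6% of control with no overlap (log2 -0.44 ± 0.07, adjusted p = 0.0014) on its single probe set, and with median centring it was at -0.33 and did not pass (adjusted p = 0.103).

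The upstream sequences of 29 of the 42 genes were matched by symbol to RefSeq promoters (GRCm38.p6). The 250 bases before the start are shown for Nid1 and Agrn, the genes called higher, and for Itgav and Itgb5 as examples of genes called lower that form 1 receptor. They run 5′ to 3′ on the gene's strand, and capitals mark the letters GCGGGGGCG, a site of the EGR and WT1 zinc finger type, found on either strand.
Nid1 (chr13:13437352-13437601, plus strand): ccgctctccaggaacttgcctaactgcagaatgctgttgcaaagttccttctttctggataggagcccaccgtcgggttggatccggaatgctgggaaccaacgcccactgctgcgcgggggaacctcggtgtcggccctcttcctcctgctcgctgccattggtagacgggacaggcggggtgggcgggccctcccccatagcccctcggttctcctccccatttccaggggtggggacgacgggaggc
Agrn (chr4:156186260-156186509, minus strand): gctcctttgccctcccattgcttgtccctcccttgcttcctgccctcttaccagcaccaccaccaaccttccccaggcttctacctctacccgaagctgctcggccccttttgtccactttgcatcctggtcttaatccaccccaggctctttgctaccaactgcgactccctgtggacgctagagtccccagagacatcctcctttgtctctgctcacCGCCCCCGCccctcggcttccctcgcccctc
Itgav (chr2:83724147-83724396, plus strand): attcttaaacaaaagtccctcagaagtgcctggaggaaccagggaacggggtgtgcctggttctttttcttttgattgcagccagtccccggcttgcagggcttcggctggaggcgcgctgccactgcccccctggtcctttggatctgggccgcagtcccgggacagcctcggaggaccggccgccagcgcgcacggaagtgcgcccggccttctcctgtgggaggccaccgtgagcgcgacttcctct
Itgb5 (chr16:33829415-33829664, plus strand): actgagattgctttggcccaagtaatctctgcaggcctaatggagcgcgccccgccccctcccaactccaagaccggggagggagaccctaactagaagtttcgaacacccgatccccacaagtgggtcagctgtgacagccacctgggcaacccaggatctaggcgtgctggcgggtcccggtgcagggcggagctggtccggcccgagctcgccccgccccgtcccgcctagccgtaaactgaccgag
The search also covered GCGTGGGCG and GCGTGGGAG on both strands. The 3 motifs share their end letters, so matches of different motifs can overlap, and 1129 of 32851 promoters hold any of them. A match is a description of these letters, not a binding site. GCGGGGGCG was found in 845 promoters of this length (2.57%) and in 4 of 35 member promoters (11.4%), which belong to 3 genes, Agrn, Dag1 and Lamb1, the 2 Dag1 windows sharing 1 site. The other 2 motifs were in 0.536% and 0.405% of all promoters and in 0 of the 35. Agrn is the 1 called gene among the 3, and its match starts 31 bases before the transcript start of 1 of its 2 promoters, the window shown. The other Agrn promoter, which is not shown, holds none of the 3 motifs. The called genes Nid2, Itga6, Itga7 and Itgb3 had no matched promoter and were not searched. The windows of Nid1, Itgav and Itgb5 hold none of the 3 motifs.

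Subunits and their partners were also set side by side within arrays, as the log2 signal of 1 gene minus that of another on the same array. The 7 pairs were chosen after the values were seen, so their differences are a description and no test is given. Centring an array shifts both genes equally and leaves these differences as they are. For Itga3, Itga6, Itga7 and Itgav, each minus Itgb1, the difference between groups was -0.80, -0.56, -0.93 and -0.72, and in each pair all 4 Wt1 siRNA arrays lay below all 4 control arrays. These 4 were alpha subunits already called lower. Other β1 partners, Itga10 (log2 difference 0.39) and Itga5 (-0.61), were not called and were not paired. Leaving out each array in turn gave -0.88 to -0.73 for Itga3, -0.68 to -0.40 for Itga6, -1.06 to -0.68 for Itga7 and -0.85 to -0.59 for Itgav. Nid1 minus Nid2 differed by 2.04, with all 4 Wt1 siRNA arrays above all controls, and by 1.94 to 2.11 when 1 array was left out. The groups overlapped for Itgav minus Itgb5, at 0.09, and for Itgav minus Itgb3, at 0.44. Over all combinations of tested probe sets, the 4 alpha minus Itgb1 differences ranged over -1.12 to -0.19 and the Nid1 minus Nid2 differences over 2.04 to 2.34.

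**Figure D3:**
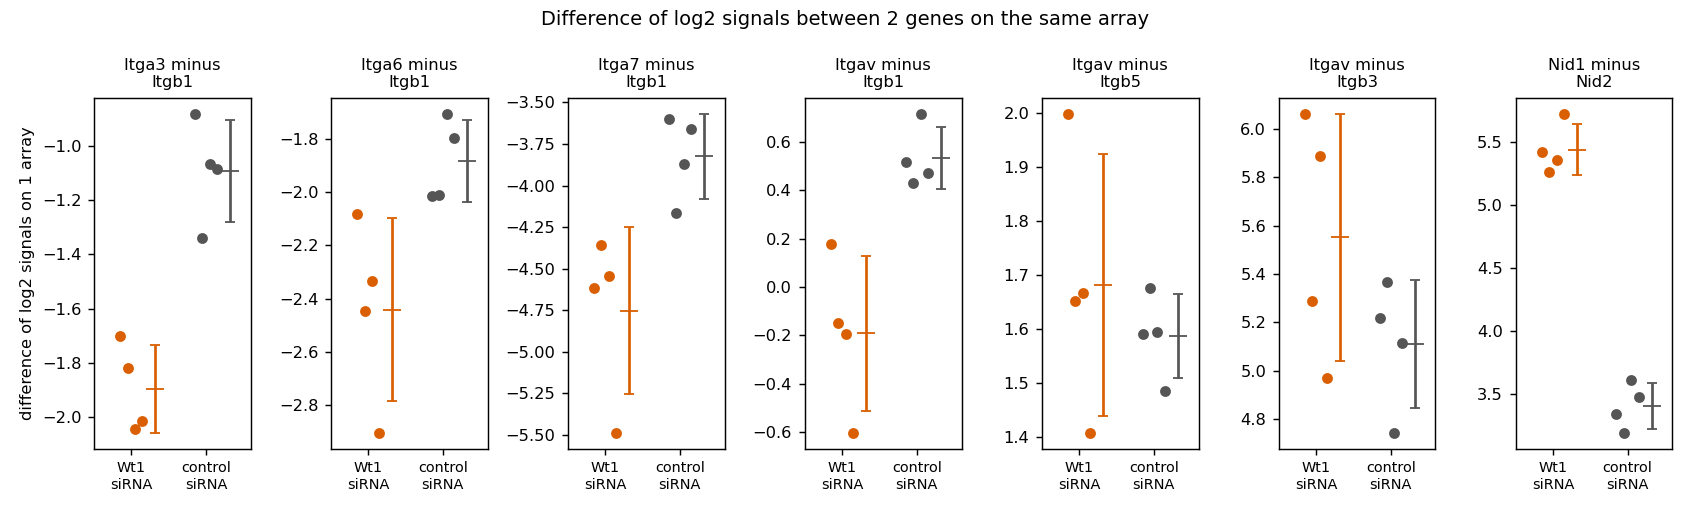
Difference of the log2 signals of 2 genes on the same array (y axis, log2 units, scale differs between panels) for 4 Wt1 siRNA and 4 control siRNA arrays, with group mean and SD. The groups are apart for the 4 alpha subunits minus Itgb1 and for Nid1 minus Nid2, and overlap for Itgav minus Itgb5 and Itgav minus Itgb3.

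The genes of integrin ligands and partners were counted by list, on the brightest probe set of each gene, to be read against the 14.6% lower and 13.2% higher of all genes and their median of -0.00438. Of 12 tested genes for RGD and other matrix ligands 5 were lower, 2 higher and 5 did not pass (list median -0.17). The ligand gene Tgfb3, whose latent protein αV integrins bind, was lower, at 30.8% of control (log2 -1.70 ± 0.17, adjusted p = 4.61e-05). The matricellular genes Thbs1 and Ccn2 fell to 47.3% and 47.7%, and Tnc, encoding tenascin C, to 56.5%. Fn1, the fibronectin gene, did not pass (0.05 ± 0.10, adjusted p = 0.74). The 2 called higher were Ltbp1, a latent TGF-beta binding protein gene, at 1.40-fold, and Npnt, encoding nephronectin, the kidney ligand of α8β1, at 1.55-fold (log2 0.64 ± 0.12, adjusted p = 0.00228), both named after their values were seen. The 3 other tested Npnt probe sets were above 0 too, while Itga8 stayed under background.

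Collagens that β1 integrins bind were lower more than higher. Of 8 tested fibrillar and type VI collagen genes 3 were lower, 1 was higher and 4 did not pass (median -0.45). Col5a2, Col3a1 and Col1a1 fell to 59.1%, 60.6% and 63.6% of control, and Col5a1 was at 1.41-fold. Without control siRNA array 1 the list had 5 lower. Among 8 tested basement membrane collagens 1 was lower, 2 were higher and 5 did not pass. The type IV chains Col4a1 and Col4a2, which form the common network, were at -0.05 and -0.10 (adjusted p = 0.738 and 0.318). Col4a5, a chain of the mature glomerular network, was at 63.6% of control (log2 -0.65 ± 0.07, adjusted p = 7.06e-05). Col18a1, the source of endostatin, was at 1.81-fold and Col7a1, of anchoring fibrils, at 1.79-fold. The Col18a1 call was lost without Wt1 siRNA array 1 (adjusted p = 0.0565) or 2 (0.0594) or control siRNA array 4 (0.052).

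**Figure D4:**
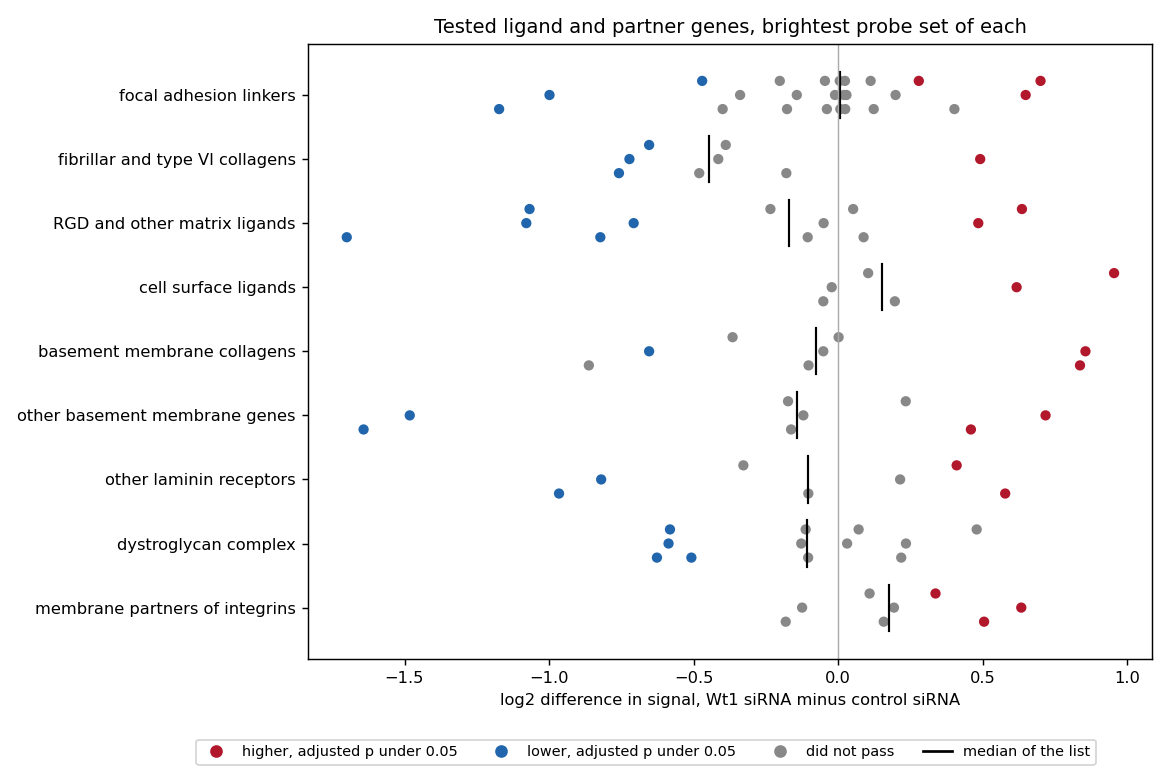
Log2 difference in signal (x axis, Wt1 siRNA minus control siRNA) of each tested gene in 9 lists of integrin ligands and partners (y axis), on its brightest probe set, coloured by call, with a bar at the list median. The medians lie between -0.45 for fibrillar and type VI collagens and 0.18 for membrane partners of integrins.

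Of 8 other basement membrane genes tested, against 14.6% lower and 13.2% higher of all genes, 2 were lower (Hmcn1, encoding hemicentin, at -1.64 on the log2 scale and the netrin gene Ntn4 at 35.8% of control) and 2 higher (Fbln1, encoding fibulin 1, at 1.64-fold and Tinagl1 at 1.38-fold). Ntn4 binds laminin gamma chains; its log2 difference was -1.48 ± 0.19 (adjusted p = 0.000274). The tested probe sets of Fbln1 went in both directions, and averaged over them it was at 0.21 and did not pass (adjusted p = 0.299). Of 7 laminin receptors outside the integrins, Bcam, the Lutheran receptor for laminin alpha 5, fell to 51.2% of control (log2 -0.97 ± 0.16, adjusted p = 0.00132) and the syndecan gene Sdc4 to 56.7%. The syndecan genes Sdc1 and Sdc3 were at 1.49-fold and 1.33-fold, and 3 genes did not pass. The Sdc3 call was lost without any 1 of Wt1 siRNA arrays 1 to 3 or control siRNA arrays 2 and 3 (adjusted p up to 0.0964) and with the replicate number as a block (0.0665).

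Of 12 tested genes of the dystroglycan complex and its glycosylation 4 were lower and 0 higher by limma, with 1 higher at an unadjusted p under 0.05. Dmd, encoding dystrophin, fell to 70.3% of control, Sgce, a sarcoglycan gene, to 66.8%, and the glycosylation enzyme genes Pomgnt1 and Pomk to 64.8% and 66.6%. With median centring 1 of the 4 was still called, Pomgnt1 having an adjusted p of 0.0397. The Sgce call was lost without Wt1 siRNA array 2 (adjusted p = 0.0605) or control siRNA arrays 2 (0.0597) or 4 (0.0672), and that of Pomk without Wt1 siRNA array 1 (0.0517).

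Of 24 tested focal adhesion linkers inside the cell 3 were lower, 3 higher and 18 did not pass, with a list median of 0.00680, which is close to the shares over all genes (14.6% lower and 13.2% higher). Zyx, encoding zyxin of mature adhesions, fell to 44.4% of control (log2 -1.17 ± 0.11, adjusted p = 3.46e-05), and Fermt2, encoding the integrin activator kindlin-2, to 50.1% (adjusted p = 3.26e-06). Fermt2 signals were 5319 to 5835 after Wt1 siRNA, against 10695 to 11502 after control siRNA. The kinase gene Src and the adaptor gene Git1 were at 1.57-fold and 1.63-fold. Tln1, encoding talin, and Vcl, encoding vinculin, were at 0.01 and -0.04, and the Ilk partners Lims1 and Parva at 0.02 and 0.20 (adjusted p = 0.911 and 0.259).

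Genes for membrane partners of integrins were higher in 3 of 8 tested cases and lower in 0 by limma, with 0 lower at an unadjusted p under 0.05. The tetraspanin gene Cd9 was at 1.55-fold (log2 0.63 ± 0.07, adjusted p = 9.03e-05), Plaur, the urokinase receptor gene, at 1.42-fold and Slc3a2, encoding the CD98 heavy chain, at 1.26-fold. Without Wt1 siRNA array 4 the list had 1 lower. Cd151, the tetraspanin of α3β1, did not pass (0.19 ± 0.08, adjusted p = 0.106). Of 6 tested cell surface ligands 2 were higher, Cdh1, encoding the αEβ7 ligand E-cadherin, at 1.94-fold and the disintegrin gene Adam15 at 1.53-fold, and 0 were lower by limma, with 0 lower at an unadjusted p under 0.05.

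Of the marker lists of other cell types, the epithelial, endothelial and podocyte ones had lower summed signals after Wt1 siRNA. Their few calls are to be read against the 14.6% lower and 13.2% higher of all genes. The summed signal of 10 epithelial markers was 19579 to 20469 after Wt1 siRNA and 22196 to 23789 after control siRNA, with 2 of 4 tested markers lower (Epcam at 23.3% of control, and Krt18), Krt8 higher and 6 markers under the filter. E-cadherin (Cdh1), an epithelial marker counted among the cell surface ligands and not in this sum, was called higher (0.95 ± 0.19, adjusted p = 0.00352). The sum of 8 endothelial markers was 4764 to 5152 after Wt1 siRNA and 5648 to 6603 after control siRNA. Of 3 tested endothelial markers 2 were lower (Kdr and Cd34) and 1 was higher only at an unadjusted p under 0.05 by limma. The defining markers Pecam1 and Cdh5 were under the filter. The sum of 5 podocyte markers was 16509.6 to 17088 after Wt1 siRNA and 17096 to 22772 after control siRNA, with 2 of 3 tested markers lower (Synpo and Podxl) and Nphs1 under the filter. That of 6 muscle markers was 1331 to 1781 after Wt1 siRNA and 1386 to 1976 after control siRNA, with 3 markers tested and 0 called by limma (0 at an unadjusted p under 0.05). The part of these shifts in the integrin results was not tested, and fewer cells of a type and less RNA per cell cannot be told apart.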

How the data were processed

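Each deposited value is 1 intensity on a linear scale for a probe set of the Affymetrix Mouse 430_2 array. The submitters' processing notes name MAS5, with no version given in the sources used here. That method contrasts perfect match with mismatch probes. The median SD within groups on the log2 scale was 0.191 for tested and 0.863 for untested probe sets. Probe sets were named from the platform annotation, with symbols updated through Entrez IDs (34945 with 1 symbol, 932 with several and 9160 unnamed here). The brightest probe sets of Wt1, Itga5 and Lamb1 are of the _s_at design and that of Itgb5 of the _x_at design, which may match other transcripts. Intensities were log2 transformed with nothing added. The brighter part of probe sets by mean over all 8 arrays (share 0.5, lowest mean signal 291) was tested with limma 3.58.1 in R 4.3.3 (lmFit, eBayes with intensity trend, two-sided, Benjamini-Hochberg). Errors after a log2 difference are SEs, and folds and percents of control are 2 to the power of it. The number of arrays limits the precision. In simulated data over 22518 probe sets, 200 were changed. Of these, 22% of changes of 0.5 and 74% of changes of 1 on the log2 scale were recovered, and 3 of 99 calls were false. In the real data 5194 probe sets were called, far more than were changed in the simulation, so the Benjamini-Hochberg cutoff was less strict. The simulated shares therefore do not give the recovery in the real comparison. The labels state no pairing, so replicate numbers were left out of the main fit and used as a block in 1 alternative. The members, lists and tests were chosen with earlier results of these data known. Values per array are given for called genes with groups apart, for Itgb1, Itgav, Itga6, Itga3, Lamc1 and Ilk, and for some uncalled genes picked after their values were seen. From each partner list up to 4 called genes with the largest difference were named, and others named were picked afterwards. Alternatives were other scalings, added constants, filters, variance models, array weights, gene-level fits and leaving out arrays. Figures were drawn with matplotlib 3.10.9.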

Additional observations from a re-analysis of the deposited data

Results flagged for a closer look

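In 4 of 62 sets of 4 arrays examined, 1 array lay far from the other 3, against 3.1 by chance at 1 in 20. These were Wt1 siRNA array 4 for Hspg2, with a signal of 14069, and for Itga10, with 592, and control siRNA array 3 for Itgb3, with 1061, and for Lama5, with 2105. Wt1 siRNA array 4 was the highest or lowest of its group in 34 of 42 tested member probe sets (81.0%), and control siRNA array 3 in 23 (54.8%). Over all tested probe sets these shares were 67.5% and 65.4%, against 38.2% to 50.2% for the other 6 arrays.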

How the results depend on the processing

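Of the 10 called member genes, Itga3, Itgb5, Nid1, Nid2 and Agrn were called under every alternative they entered (22 or 23), and no called member turned its sign. Member genes called lower were 8 as reported, 4 with median centring, 5 in the brightest 0.25 of probe sets, 5 with the mean over probe sets at gene level and 5 at an adjusted p under 0.01. Member genes called higher were 2 as reported and 4 both without Wt1 siRNA array 4 and with control siRNA array 3 left out as well (added after seeing the data), Hspg2 and Itga10 being the additions. Member probe sets called lower were 11 as reported and 7 with median centring, and those called higher were 4 as reported and 2 at an adjusted p under 0.01. Leaving out each array in turn gave 2 to 4 member genes higher and 7 to 9 lower, 2 to 5 member probe sets higher and 10 to 12 lower, and 1698 to 2671 probe sets higher and 2047 to 3092 lower of all tested. Over all probe sets 2430 were higher and 2764 lower as reported, 2459 and 1369 with median centring, and 1184 and 1536 at an adjusted p under 0.01. Values that turned sign, none of them passing, were those of Itga4 without Wt1 siRNA array 1 (-0.0327), Lama5 without control siRNA array 3 (-0.0451) and with the mean over probe sets (-0.48), Lamb1 without Wt1 siRNA array 2 (-0.016) or control siRNA array 4 (-0.0229) and with the mean over probe sets (-0.10), Lamc1 without Wt1 siRNA array 2 (0.0555) and with median centring (0.0303), and Itgav minus Itgb5 without Wt1 siRNA array 1 (-0.0114). The mean over probe sets takes in probe sets under the filter. For Lama5 this includes 1 at -1.55, with signals of 4.5 to 66.8, and for Lamb1 1 at -0.26, both with group means under background. The cause of the turns was not tested. Leaving out each array in turn gave -0.0327 to 0.16 for Itga4, -0.0451 to 0.16 for Lama5, -0.0229 to 0.0758 for Lamb1, -0.16 to 0.0555 for Lamc1 and -0.0114 to 0.19 for Itgav minus Itgb5. Same-numbered arrays did not deviate together (correlations of -0.06 to 0.08). The labels state no pairing, and such correlations cannot show whether same-numbered samples were handled together. With the replicate block 7 member genes were lower and 2 higher, Itga6 being lost (-0.35, adjusted p = 0.0581), and 10 member probe sets were lower and 4 higher. Low signal limits 18 of the 42 genes, which were not tested.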
